A study of Mus musculus with 8 samples.

Results

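Of 21521 protein-coding genes on mouse chromosomes 1 to 19 and X, 6 genes of prostaglandin E2 and nitric oxide production were examined for RelA binding. RelA (p65) is an NF-kB subunit that carries a transactivation domain. The 6 genes were Pla2g4a, Ptgs1, Ptgs2, Ptges, Ptger4 and Nos2, taken by name. Each peak whose centre fell inside one of these genes, or no more than 50 kb beyond either of its ends, was counted for that gene. This gave 9 of the 9829 peaks in the list. Chromatin immunoprecipitation and sequencing (ChIP-seq) had been done on primary embryonic fibroblasts (MEFs) of wild-type C57BL/6 mice, all starved of serum overnight. Cells received TNF, an inflammatory cytokine, at 10 ng/ml. There were 2 RelA libraries before TNF (0 h), 2 after 0.5 h and 2 after 3 h, and 2 libraries of input DNA. The list holds positions only, without peak height, sample or time, so no value has a replicate error, depth is unknown, and 0, 0.5 and 3 h cannot be compared. A gene without a listed peak is a gene at which none was called, not one shown to be unbound, and the peaks hold no RNA values against which to check the labelled cell type.

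Prostaglandin E2 is made in series: phospholipase A2 frees arachidonic acid from membranes, a cyclooxygenase turns it into prostaglandin H2, and a terminal synthase makes prostaglandin E2, which acts through surface receptors. The cyclooxygenase encoded by Ptgs1 is present in many resting tissues, whereas Ptgs2 is the textbook inducible form, switched on in fibroblasts by cytokines and growth factors. Nos2 encodes the inducible synthase that makes nitric oxide from arginine and is known chiefly from activated macrophages.

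The inducible cyclooxygenase gene had no RelA peak in its window, and the constitutive one had 1. Ptgs2 and the receptor gene Ptger4 had 0 peaks, Ptgs1 had 1, Pla2g4a and Nos2 had 2 each, and Ptges, the gene of the inducible microsomal prostaglandin E synthase, had 4. Thus 4 of the 6 genes had at least 1 peak, beside 43.2% of all protein-coding genes. At least 2 peaks were found for 3 of the 6, beside 18.5% of protein-coding genes, and 3.12% had the 4 or more seen at Ptges. The mean was 1.5 peaks per gene for the 6 genes and 0.747 for all protein-coding genes. The gene itself was part of the span searched, so longer genes were searched over more sequence. The 4 genes with a peak are 39.44 to 131.7 kb long, and the median protein-coding gene is 17.4 kb long. These shares and means were not adjusted for length. Among the counted peaks, the farthest from its gene was one of Nos2, at 33.4 kb. Beyond the window, the next centres lay 66.0 kb from Ptges, 72.0 kb from Nos2, 89.6 kb from Ptgs2 and 105 kb from Ptger4. Pla2g4a and Ptgs1 gained no further peak out to 200 kb.

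**Figure D1:**
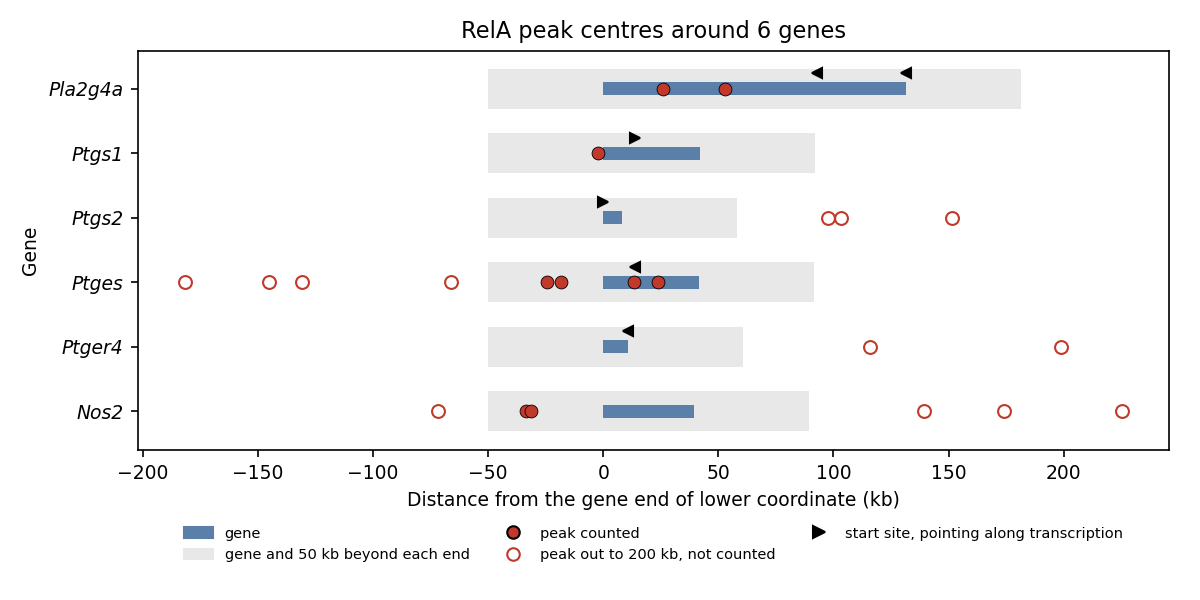
Peak centres around the 6 genes, plotted as distance in kb from the gene end of lower coordinate (1 row per gene; blue bar, gene; grey, gene and 50 kb beyond each end; filled circles, counted peaks; open circles, peaks out to 200 kb; arrowheads, RefSeq start sites, with none drawn for Nos2). Ptges has 4 filled circles, Pla2g4a and Nos2 have 2 each and Ptgs1 has 1, and the grey bars of Ptgs2 and Ptger4 hold none.

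Sequence immediately before the start site was compared for 3 genes: Ptgs2 and Ptgs1, which make up the inducible and constitutive pair, and Ptges, which had the peak closest to a start site. The RefSeq promoter table (GRCm38.p6) matched 5 of the 6 genes, all but Nos2. The 250 bases before each start site follow, 5′ to 3′ along the gene, at chr1:150099781-150100030 (plus strand) for Ptgs2, chr2:36230176-36230425 (plus strand) for Ptgs1 and chr2:30903298-30903547 (minus strand) for Ptges. Capitals mark matches, on either strand, to the 8 motifs searched.
Ptgs2: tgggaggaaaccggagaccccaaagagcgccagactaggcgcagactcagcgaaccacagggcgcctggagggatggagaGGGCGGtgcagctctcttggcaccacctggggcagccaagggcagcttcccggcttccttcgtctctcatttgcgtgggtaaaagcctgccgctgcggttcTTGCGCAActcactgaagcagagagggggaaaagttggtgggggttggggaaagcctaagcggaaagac
Ptgs1: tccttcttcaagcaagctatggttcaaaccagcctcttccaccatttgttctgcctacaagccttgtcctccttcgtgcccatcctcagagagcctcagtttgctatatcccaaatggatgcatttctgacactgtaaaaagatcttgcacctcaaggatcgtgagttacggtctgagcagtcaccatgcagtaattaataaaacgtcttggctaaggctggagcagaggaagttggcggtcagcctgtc
Ptges: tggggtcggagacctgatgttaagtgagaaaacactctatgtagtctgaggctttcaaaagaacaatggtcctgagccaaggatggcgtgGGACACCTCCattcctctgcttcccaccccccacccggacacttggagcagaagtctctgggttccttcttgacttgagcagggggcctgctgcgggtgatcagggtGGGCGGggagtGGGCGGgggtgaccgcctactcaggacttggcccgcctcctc
The motifs were the kappaB consensus and a relaxed form of it, the AP-1 motif with the letters TGANTCA, and the short motif TGACG that CREB and ATF proteins bind. Also searched were the C/EBP motif in the form TTGCNNAA, the TATA box spelled TATAAA, the GC box spelled GGGCGG, and the palindrome CACGTG known as the E-box. Windows searched ran on for 50 bases from the start site, in 32851 promoter windows of the table. The kappaB consensus was in no window of the 5 genes, and was in 8.46% of all windows. The relaxed form, in 26.8% of all windows, was found once, in Ptges as GGACACCTCC with its first base 160 bases before the start site. In Ptgs2 the C/EBP motif stood as TTGCGCAA 69 bases before the start site (10.8% of all windows hold the motif), and the E-box (7.15%) and TGACG on the opposite strand (20.8%) lay just after it, at bases 17 and 14, overlapping each other. GC boxes, in 35.7% of all windows, were found in Ptgs2, Ptges and Ptger4, the last with 4. The TATA box (13.6% of all windows) was found once, on the opposite strand as TTTATA, in the window of the inner Pla2g4a start site, 200 bases before it. The Ptgs1 window and that of the outer Pla2g4a start site held none of the motifs searched. CpG dinucleotides numbered 25 in the Ptger4 window, 16 in Ptgs2, 10 in Ptges, 6 in Ptgs1, and 6 and 2 in the windows of the 2 Pla2g4a start sites, against a median of 7 over all windows. A match describes letters only, and a missing match says nothing of sites outside these windows. No peak overlapped a promoter window of the 5 genes. Such a peak was found for 5.59% of the 17274 protein-coding genes in the table, so its absence from 5 genes is unremarkable.

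Pla2g4a encodes cytosolic phospholipase A2, which supplies arachidonic acid. The gene (Gene ID 18783, chromosome 1, 149829618 to 149961290, mm10) is 131.7 kb long, against a median of 17.4 kb for protein-coding genes. Both of its peaks lay inside it, at 149855514 to 149855958 (445 bp) and 149882337 to 149883010 (674 bp). Measured from the gene end that is farther from the start sites, their centres lay at 26.1 and 53.1 kb, 26.9 kb from each other. From the nearer of the 2 RefSeq start sites of the gene, they lay 66.7 and 39.8 kb downstream. The peaks were therefore well inside the transcribed region and away from either start. Whether they fall in exons or introns was not analysed here. Of protein-coding genes, 14.6% had a peak centre inside. Neither peak was within 50 kb of any other protein-coding gene, and these were the only unshared peaks of the 9. Per 100 kb of sequence searched, Pla2g4a had 0.863 peaks, and the mean of all protein-coding genes was 0.521.

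Ptgs2 (Gene ID 19225, chromosome 1, 150100031 to 150108234) is the next protein-coding gene after Pla2g4a, 138.7 kb away, and is 8.204 kb long. Between the second Pla2g4a peak, 217 kb before Ptgs2, and the next peak, 89.6 kb past its end, no peak was listed over 315 kb. On chromosome 1, 21.0% of the 744 pairs of neighbouring peaks were farther apart than this, and the median spacing was 93.7 kb. A nearest peak at 89.6 kb was not unusual either: 43.9% of protein-coding genes were farther from a peak, and their median distance was 68.8 kb. The first peaks past the gene were 809 bp wide (150197392 to 150198200) and 648 bp wide (150202961 to 150203608), at 89.6 and 95.1 kb, and were followed by one of 1347 bp (150250927 to 150252273) at 143 kb. Only 1.17% of all peaks were at least as wide as the last of these. No protein-coding gene lay within 50 kb of any of the 3. Ptgs2 was still the nearest protein-coding gene to the first 2, and Pdc to the last. The noncoding RNA gene Ptgs2os2 (150159043 to 150164948), looked up after the peaks had been seen, lies between these peaks and Ptgs2. It had 2 peaks within 50 kb, at 32.8 and 38.3 kb. Ptgs2os, the noncoding gene that ends just before the Ptgs2 start (150074873 to 150099874), had 0, with the nearest at 97.9 kb.

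Ptgs1 (Gene ID 19224, chromosome 2, 36216742 to 36258593) had a single 630 bp peak at 36213963 to 36214592. Its centre was 2.46 kb outside the gene on the side where transcription begins. The start site in the promoter table (36230426) lies further in than the annotated gene end (36216742), and the same peak was 16.1 kb upstream of that site. On the other side of the gene the next peak was 1184.6 kb away. The peak was also within 50 kb of Mrrf, a mitochondrial ribosome recycling factor gene, 24 kb away, and Ptgs1 was the nearer of the pair.

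Set side by side, Ptgs1 had 1 peak and Ptgs2 had 0 at 10 and at 50 kb, but at 100 kb Ptgs1 still had 1 and Ptgs2 had 2, beside 58.7% of protein-coding genes with at least 1 peak at that distance. At 200 kb the counts were 1 and 3. The order of the cyclooxygenase genes thus turned with the window. Per 100 kb searched with the 50 kb window, Ptgs1 had 0.705 peaks. The mean of all protein-coding genes was 0.521, and the average over the whole of chromosome 2 was 0.427. With 1 list and no value per library, the difference of 1 peak could not be tested. The Ptgs1 peak (630 bp) was narrower than the median of the list, 687 bp, and with peaks of at least median width neither gene had one within 50 kb.

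**Figure D2:**
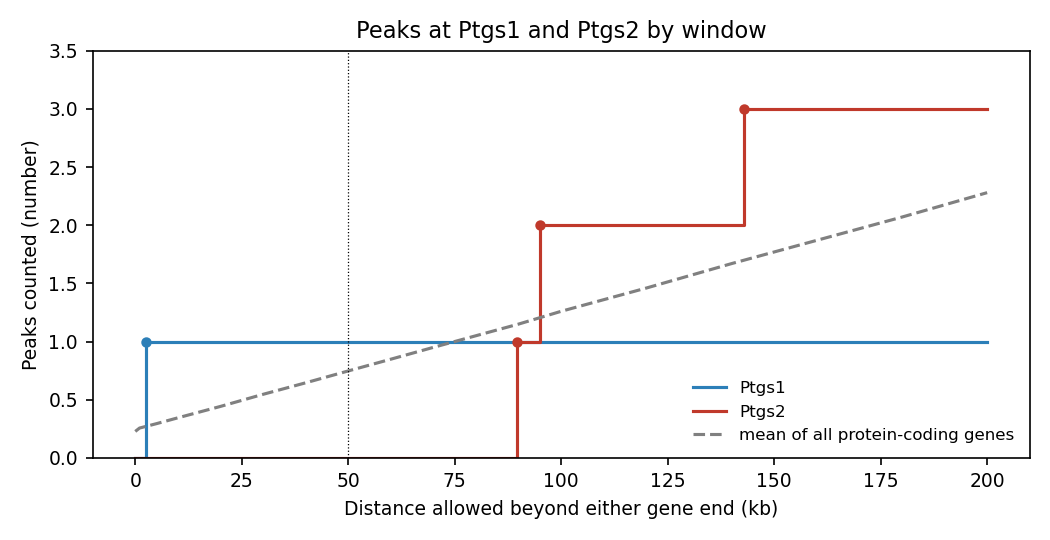
Number of peaks counted for Ptgs1 (blue) and Ptgs2 (red) as the distance allowed beyond either gene end grows (x axis, kb; each dot is a peak); the dashed line is the mean of all protein-coding genes and the dotted line marks 50 kb. Ptgs1 gains its only peak at 2.46 kb, and Ptgs2 gains peaks at 89.6, 95.1 and 143 kb, passing Ptgs1 at the second.

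Ptges encodes microsomal prostaglandin E synthase, which works downstream of the inducible cyclooxygenase. The gene (Gene ID 64292, chromosome 2, 30889471 to 30931020) had 2 peaks inside and 2 outside, or 2.83 per 100 kb searched, the highest of the 6 genes. A 522 bp peak at 30902436 to 30902957 was centred 0.601 kb downstream of the start site. Its edge was 290 bp from the promoter window searched, which includes 50 bases from the start site that are not printed above. Of protein-coding genes in the promoter table, 6.62% had a start site with a peak centre 1 kb away or less, and 5.73% had one nearer than Ptges did. None of the other 4 genes with a start site had one so close: the distances were 16.1 kb for Ptgs1, 39.8 kb for Pla2g4a, 97.8 kb for Ptgs2 and 105 kb for Ptger4. A second inside peak, 449 bp wide (30913161 to 30913609), was 10.1 kb upstream of the Ptges start site in the table and still within the gene as annotated.

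The peaks outside Ptges, 758 bp (30864813 to 30865570) and 744 bp (30870894 to 30871637) wide and 6.07 kb apart, were centred 24.3 and 18.2 kb past the end of the gene. Both were inside Prrx2 (30845064 to 30881251), a homeobox gene of mesenchymal cells. The window of Prrx2 took in all 4 Ptges peaks, those of Asb6 and Ntmt1 took in the 2 inside Prrx2, and those of Tor1b and Tor1a took in the peak of 449 bp. With each peak given only to its closest protein-coding gene, Ptges had 2 peaks. In all, 7 of the 9 peaks were shared with at least 1 other protein-coding window, as were 48.8% of the 7596 peaks that lay in any such window.

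Ptger4 encodes EP4, a prostaglandin E2 receptor that raises cyclic AMP. The gene (Gene ID 19219, chromosome 15, 5233399 to 5244187) had no peak within 50 or 100 kb. The nearest, 456 bp wide at 5348920 to 5349375, was 105 kb away on the side from which transcription starts, and 40.1% of protein-coding genes were farther from a peak than this. On the other side the nearest was 1525.4 kb away. Ptger4 and Ptgs2 thus each had an empty window, as did 56.8% of protein-coding genes. They are 10.79 and 8.204 kb long, and whether length bears on this was not tested.

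Nos2 (Gene ID 18126, chromosome 11, 78920787 to 78960226) had no peak inside or within 10 kb. Its 2 peaks, of 540 bp (78887102 to 78887641) and 496 bp (78889025 to 78889520), were 1.9 kb apart and lay 33.4 and 31.5 kb outside the gene end of lower coordinate. They were the closest pair among the 9 peaks. Lyrm9, a gene named for its LYR motif, was 43.5 and 45.4 kb away on their other side, so Nos2 was the nearer protein-coding gene. The pseudogene Gm19741, looked up after the peaks had been seen, lay nearest of all, 3.00 and 1.10 kb from them. Of protein-coding genes, 65.0% were farther from a peak than the 31.5 kb of Nos2. With the window at 10 kb, 3 of the 6 genes had a peak, Pla2g4a, Ptgs1 and Ptges, beside 23.1% of protein-coding genes.

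**Figure D3:**
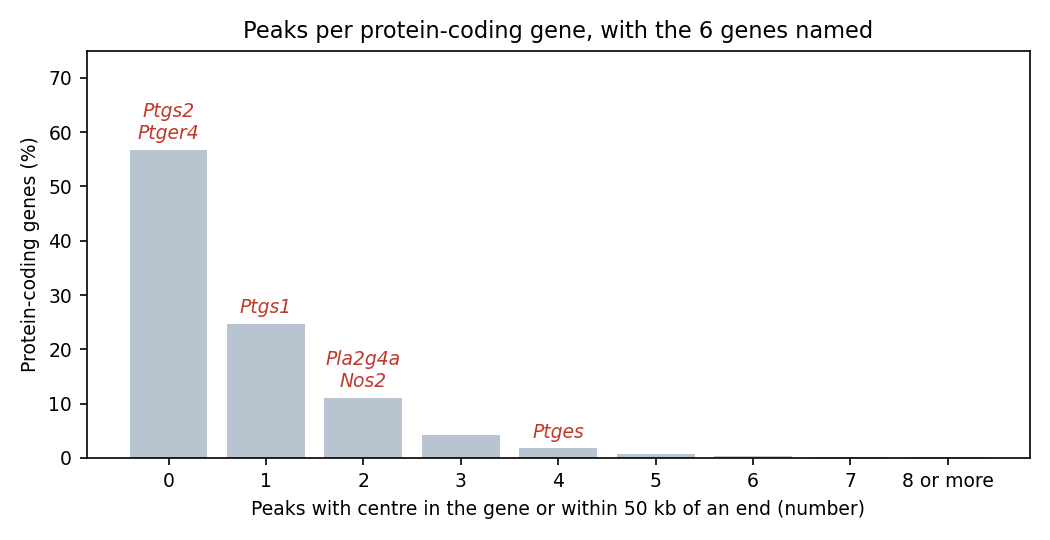
Percentage of the 21521 protein-coding genes (y axis) with each number of peaks inside or within 50 kb of an end (x axis), with the 6 genes written above their bar. Genes with 0 peaks, Ptgs2 and Ptger4 among them, make up 56.8%, and genes with 4, as Ptges has, 1.75%.

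Peaks at these genes were mostly narrow. Their widths ran from 445 to 758 bp with a median of 540 bp, and 7 of the 9 were below the list's median of 687 bp. The 2 wider ones, 758 and 744 bp, were the pair inside Prrx2. The 4 peaks inside Pla2g4a or Ptges were 445, 674, 522 and 449 bp wide, and 97.6% of all peaks were at least as wide as the narrowest. Width was the sole property of the peaks themselves that could be compared.

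The 6 genes were then placed among 67 protein-coding genes of the prostanoid, leukotriene and nitric oxide pathways. Of these, 36 (53.7%) had a peak within 50 kb or inside, against 43.2% of protein-coding genes, and 15 (22.4%) had one within 10 kb or inside, against 23.1%. Leaving out the 6 genes, 32 of 61 (52.5%) and 12 of 61 (19.7%) did. The wider pathway was thus close to the background at 10 kb. Among terminal prostanoid synthases, 5 of 8 had a peak within 50 kb, and besides Ptges one within 10 kb was found for Tbxas1, the thromboxane synthase gene (846 bp, inside, 57.2 kb from the start site). Of the 12 phospholipase A2 genes measured, 6 had a peak within 50 kb. Besides Pla2g4a these included Plaat3, with a 529 bp peak inside and 1.39 kb from the start site, and the lysosomal enzyme gene Pla2g15, with peaks 4.49 and 4.65 kb away.

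Of the 9 receptor genes, 3 (33.3%) had a peak within 50 kb and 1 (11.1%) within 10 kb, beside 43.2% and 23.1% of protein-coding genes. Ptgir, the prostacyclin receptor gene on chromosome 7 (16906490 to 16910905), had a 754 bp peak centred 0.549 kb before its start site, whereas Ptger2 (30.7 kb), Ptger1 (64.1 kb), Ptger3 (82.9 kb) and Ptger4 (105 kb), which all encode prostaglandin E2 receptors, had none within 10 kb. Of the 6 genes of transport and breakdown, 3 had a peak within 50 kb and 2 within 10 kb. These 2 are long genes with peaks inside, as 14.6% of protein-coding genes have: Abcc4, which encodes an exporter of prostaglandins, is 225.2 kb long and held 4, and Slco2a1, which encodes the uptake carrier, is 88.94 kb long and held 2. Hpgd, Ptgr1, Ptgr2 and Cbr1 had none inside or within 10 kb. Of the 7 lipoxygenase and leukotriene genes, 6 had a peak within 50 kb, beside 43.2% of protein-coding genes, and 0 within 10 kb, beside 23.1%. With 7 genes these counts are a description, and the closest, Alox5ap, was at 10.2 kb.

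In the nitric oxide branch, Nos3, the endothelial synthase gene, had its nearest peak at 12.4 kb, Nos2 at 31.5 kb and the neuronal gene Nos1 at 316 kb. The median distance was 48.1 kb for the 6 tetrahydrobiopterin genes and 49.5 kb for the 6 arginine genes, against 31.5 kb for the 3 synthases. The arginine group mixes supply with competition for arginine. Its supply genes lay at 0.022 kb (Slc7a1), 3.90 kb (Slc7a2), 23.9 kb (Ass1) and 75.2 kb (Asl) from a peak. The arginase genes Arg1 and Arg2, whose enzymes compete for arginine, lay at 318 and 219 kb. No median was taken for the supply genes alone. In each of these groups of 6, 2 genes had a peak inside or within 10 kb, beside 23.1% of protein-coding genes. Gch1, the first enzyme of tetrahydrobiopterin synthesis, an essential cofactor of all nitric oxide synthases, had a 1071 bp peak 0.356 kb downstream of its start site (chromosome 14, 47188522 to 47189592) and a second of 544 bp inside. Spr, the last enzyme of that route, had an 838 bp peak 0.131 kb from its start site. Slc7a1, an arginine transporter gene, had an 881 bp peak 0.022 kb from its start site (chromosome 5, 148399486 to 148400366), and the cytokine-inducible transporter gene Slc7a2 one at 3.90 kb. Ddah1, whose enzyme degrades an inhibitor of nitric oxide synthases, is 135.6 kb long and had 4 peaks inside, and Nostrin, 53.53 kb long, had 2. Longer genes of that group, Nos1ap (274.4 kb) and Gucy1a2 (373.4 kb), had 0 inside or within 50 kb. Of the 55 pathway genes in the promoter table, 5 (9.09%) had a peak within 1 kb of a start site, Ptges, Ptgir, Gch1, Spr and Slc7a1, beside 6.62% of protein-coding genes. Of the 9 cyclooxygenase, nitric oxide synthase and prostaglandin E2 receptor genes, Ptgs1 (2.46 kb), Nos3 and Ptger2 were the nearest to a peak, and Ptgs2, Ptger4 and Nos1 the farthest.

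**Figure D4:**
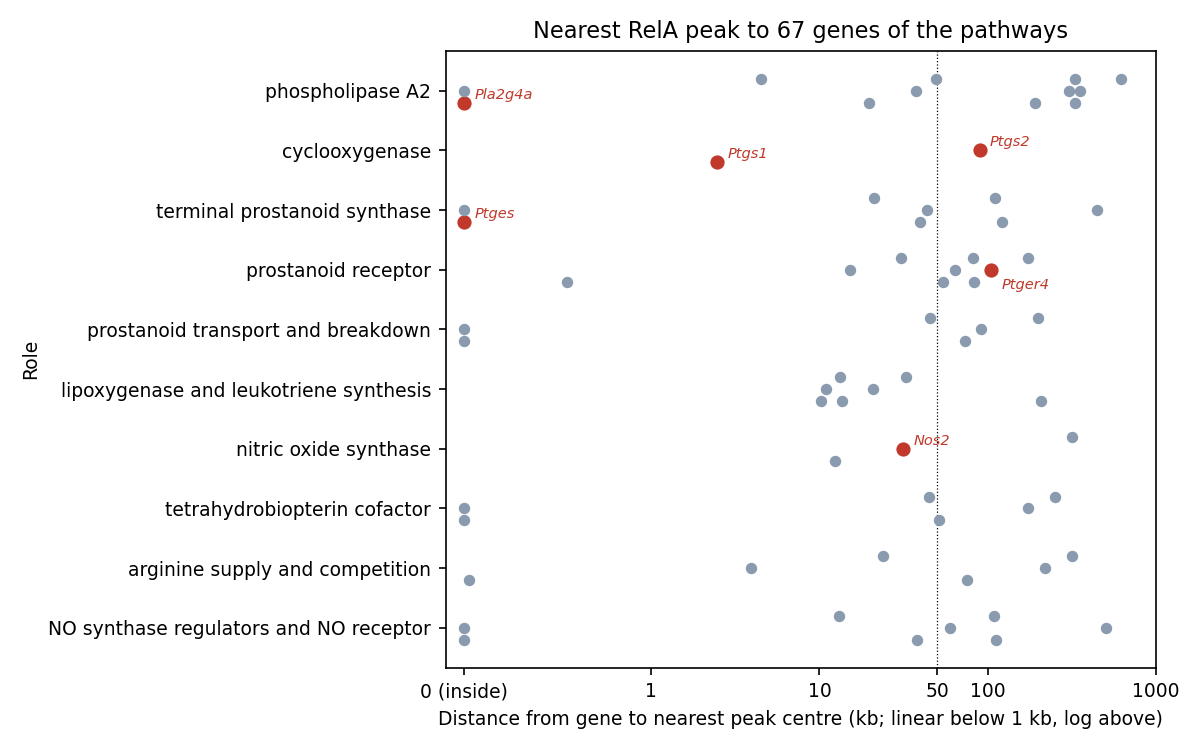
Distance from each of the 67 pathway genes to the nearest peak centre (x axis, kb, linear below 1 kb and logarithmic above; 0 means a centre inside the gene), in rows by role, with the 6 genes in red and the dotted line at 50 kb. Ptges and Pla2g4a sit at 0, Ptgs1 at 2.46, Nos2 at 31.5, and Ptgs2 and Ptger4 to the right of the line at 89.6 and 105.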

How the data were processed

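The submitters' processing notes name mm10 and, with no role or order, MACS2, deepTools, Picard 1.13, SAMtools, Bowtie2 2.3 and cutadapt 1.9.1. How peaks were thresholded, whether input was used and whether libraries were pooled is not given in the sources used here. Each line the authors deposited holds a chromosome, a start and an end (base pairs) of 1 peak. Starts were converted to positions counted from 1. Genes came from a RefSeq table of GRCm38.p6, the assembly of mm10: 49209 on chromosomes 1 to 19 and X, without 345 on scaffolds. The 6 peaks on contigs with no chromosome position entered only list totals and widths. Counting was tested on simulated peaks. Python 3.11.15 with pandas 2.3.3 was used. The planned test across times was not run for lack of values per library, and no other test was made. Of 68 pathway genes listed, 67 were protein-coding; Pla2g2a, a pseudogene in the table, was left out. The 6 genes, the pathway list and the motifs were chosen with earlier results of these data known. Pathway genes are named where a peak lay inside or within 10 kb, and paralogs by nearness; others were named after their values were seen. Alternatives were other windows, ends only, any overlap, wider peaks, merged peaks and nearest gene within 50 kb. Start sites and 200 kb were added after seeing the data.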

Additional observations from a re-analysis of the deposited data

How the results depend on the processing

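The excess of Ptgs1 over Ptgs2 (Ptgs2 minus Ptgs1, -1 peak) held in 6 of the 9 alternatives, turned to 1 at 100 kb and 2 at 200 kb, and was 0 with peaks of at least median width. The Ptgs1 peak lay 2.46 kb outside its gene, and the nearest to Ptgs2 lay at 89.6 kb. The 10 kb window, ends only, any overlap and merging therefore could not have changed the difference. Nearest gene counted only peaks within 50 kb, so it was fixed as well. It left out the peaks at 89.6 and 95.1 kb, to which Ptgs2 was the nearest protein-coding gene. Distances from start sites, 16.1 kb for Ptgs1 and 97.8 kb for Ptgs2, fixed that alternative too. The agreement of these 6 alternatives adds no support. The total of 9 peaks for the 6 genes became 5 at 10 kb and 5 without gene bodies, 14 at 100 kb, 22 at 200 kb and 2 with the wider peaks. The number of genes with a peak, 4, stayed between 3 and 6 except with the wider peaks, when it was 1 (Ptges), beside 28.5% of protein-coding genes. The 36 pathway genes with a peak became 15 at 10 kb, 23 with the wider peaks, 21 with each peak given to its nearest gene (22.1% of protein-coding genes) and 55 at 200 kb (74.6%). These alternatives count fewer or more peaks by construction. Merging peaks under 1 kb apart or counting any overlap changed none of these 4 results. Around start sites of the promoter table Pla2g4a had 1 peak, and Nos2 was not counted. No paired analysis was possible because the list has no values per library, and no library could be left out. Depth is unknown.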
